A study of Mus musculus with 108 samples.

Results

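Hematopoietic progenitors (HPs) that carried genomic fragments in a YFP reporter were compared between gates of high and low YFP. The comparison used 14 libraries of 95 sorted libraries and 108 samples in the series. These were Low replicates 1 to 5, Medium replicates 1 to 4, High replicates 1 to 4 and Medium/High replicate 5. For each replicate, all lists above Low were joined into 1 high set, which was held against the Low list of the same number, so that 5 high sets faced 5 Low sets. The 14 lists held 297095 entries, which were 250545 distinct fragments.

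The series asked which pieces of open chromatin act as enhancers while mouse embryonic stem cells form blood. Tn5 transposase cut fragments out of the open chromatin of 5 stages, and these were cloned upstream of the HSP68 minimal promoter and the Venus-YFP gene. Each reporter entered the HPRT locus of the HM-1 embryonic stem cell line by homologous recombination, so HM-1 cells, this locus and this minimal promoter were common to every library compared here. Fragments were then amplified by PCR from the DNA of sorted cells and sequenced.

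All HPs came from blast culture of FLK1+ cells with VEGF and IL-6 and were sorted as KIT+, TIE2-, CD41+ cells. By their labels the groups differed in the YFP gate and, in replicate 5, in Medium and High having been collected together. The lists hold DNA positions and no expression, so the markers of the sort could not be examined in them. A fragment counts once in a list whatever its number of reads, so no value below is a level of gene expression or of YFP.

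Hematopoietic progenitors bud from the hemogenic endothelium, switch off endothelial genes and can form the mature blood lineages. Enhancers are stretches of DNA whose bound factors raise transcription from a promoter, whereas promoters lie at the start itself. In blood progenitors the GATA, RUNX, ETS and TAL1 families occupy many such elements, AP-1 mediates signal responses, and TEAD factors are better known from endothelium and adherent cells.

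The lists were of very different size. High held 99435, 37391, 778 and 921 fragments in replicates 1 to 4, Medium held 83151, 16259, 793 and 856, and the Medium/High list of replicate 5 held 2986. Low held 34658, 15624, 842, 1409 and 1962 in replicates 1 to 5. The high set was the larger in every replicate, with 168425 against 34658 fragments in replicate 1 and 1694 against 1409 in replicate 4. Depth in reads is unknown, and the precision of each share below is set by these numbers and by the 5 replicates.

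**Figure D1:**
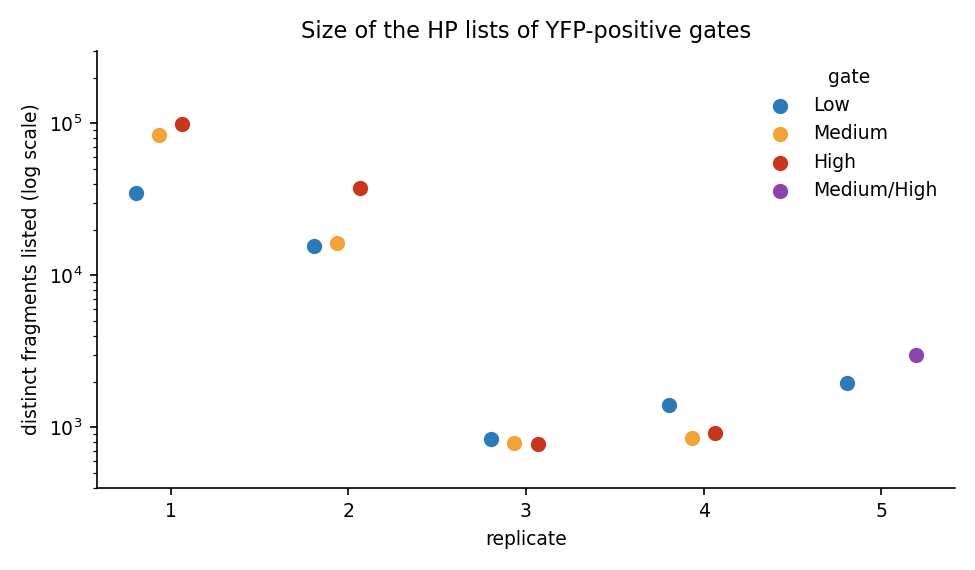
Distinct fragments listed in each HP library of the YFP-positive gates (log axis) by replicate, 1 point per library, coloured by gate. Replicates 1 and 2 hold 15624 to 99435 fragments per library and replicates 3 to 5 hold 778 to 2986.

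Some libraries shared more than their labels imply. HP High replicate 2 had 20219 fragments in common with the hemangioblast (HB) Medium list of replicate 2, 57.4% of the smaller list. HP Medium replicate 1 held 35.0% of the fragments of HP Low replicate 2. HP Low replicate 4 shared 41.0% of its fragments with Low replicate 4 of hemogenic endothelium 1 (HE1). Comparisons were also run without HP High replicate 2, without HP Medium replicate 1 and without each replicate number. The first 2 of these alternatives were added after looking at the data.

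Replicates 3 and 4 had another feature that was noticed only after the first values. Many of their fragments shared 1 end with a second fragment of the same list and differed from it by at most 5 bp at the other, here called near copies. Near copies made up 24.2% of High, 32% of Medium and 11.8% of Low in replicate 3, and 33.9%, 35.7% and 26.5% in replicate 4. In replicates 1 and 2 the shares lay between 1.07% and 7.93%, although those lists were far longer, and in replicate 5 they were 0.435% in Medium/High and 3.31% in Low. The high sets had 14.7% ± 15.5 and the Low sets 9.15% ± 10.6 (SD, n = 5), with the high set above Low in 4 of 5 replicates. Among neighbouring fragments with a common end, 74.5% of 369 pairs in replicate 3 and 90.3% of 608 pairs in replicate 4 differed by 1 or 2 bp. The comparisons of makeup, motifs, sites and genes were repeated with near copies counted once.

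**Figure D2:**
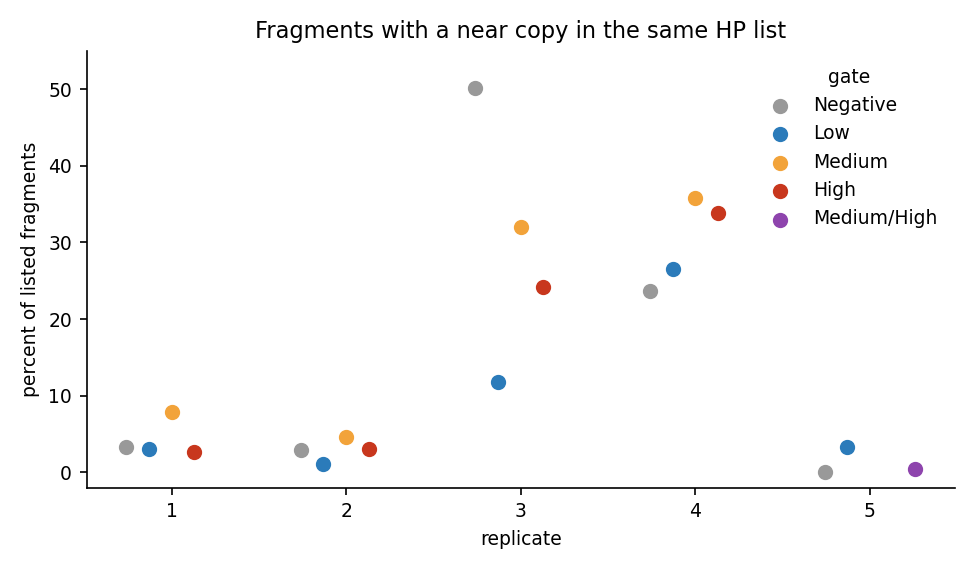
Percent of the fragments of each HP list that share 1 end with another fragment of that list and differ by at most 5 bp at the other, by replicate and gate, 1 point per library. Replicates 3 and 4 stand at 11.8% to 50.2%, and replicates 1, 2 and 5 at 0% to 7.93%.

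The clearest case was a promoter site in an intron of Tmem144, a gene of a transmembrane protein, at chr3:79843916-79844166 (mm10). It held more fragments per 10000 listed than any other site, on average over the 10 sets. Of its 10 distinct fragments, 9 ended at position 79844117 and their starts stepped by 2 bp from 79843916 to 79843932. Only 1 of these 9 was identical to a fragment of the plasmid lists. The genome sequence under the longest of the 9, shown here because of its repeats, is given on the plus strand from GRCm38 with its longest dinucleotide run, 22 copies of TG, in capitals.

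Tmem144 fragment, 202 bp: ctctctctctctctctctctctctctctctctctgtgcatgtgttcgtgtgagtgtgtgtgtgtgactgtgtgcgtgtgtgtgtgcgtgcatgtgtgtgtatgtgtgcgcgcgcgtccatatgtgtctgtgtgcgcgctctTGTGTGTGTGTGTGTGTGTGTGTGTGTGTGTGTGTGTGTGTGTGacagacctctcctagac

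The site held 1, 0, 9, 5 and 1 fragments in the high sets of replicates 1 to 5 and 0, 0, 9, 7 and 7 in the Low sets. It was thus nearly absent from the longest lists and frequent in the short ones. Per 10000 listed fragments the high sets had 18.4 ± 25.8 and the Low sets 38.4 ± 44.1 (SD, n = 5), a log2 difference of -0.91 that did not pass the threshold (limma, adjusted p = 0.999).

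The first comparison asked whether high YFP went with distal rather than promoter fragments, as the deposited lists divide them. The study set distal sites at more than 1.5 kb from a transcription start. The distal share was 34.5%, 33.6%, 28.0%, 30.7% and 29.5% in the high sets of replicates 1 to 5 and 31.9%, 31.5%, 31.0%, 27.2% and 29.8% in the Low sets. The groups overlapped, and the high set was above Low in 3 of 5 replicates. The means of 31.2% ± 2.74 and 30.3% ± 1.92 (SD, n = 5) differed by 0.960 percentage points (exact two-sided permutation, p = 0.548, adjusted p = 0.750 over 7 measures). In the separate gates of replicates 1 to 4, High had a higher distal share than Low in 4 of 4 replicates, 33.2% ± 1.57 against 30.4% ± 2.19, and the order Low, Medium, High held in 2. Medium spread widely, from 23.5% in replicate 3 to 34.6% in replicate 2. The separate gates are described without a test of their own, because the joined sets use the same lists. As an alternative, High and Medium/High lists alone were held against Low over the 5 replicates. The difference was 2.21 percentage points and did not pass the threshold (exact two-sided permutation, p = 0.143, adjusted p = 0.5).

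Distal fragments were shorter in the high set of every replicate. The median length was 157, 140, 193, 199 and 157 bp in high sets and 179, 150, 198, 201 and 168 bp in Low sets. Differences ran from -22 bp in replicate 1 to -2 bp in replicate 4, whereas the replicates themselves spanned 140 to 201 bp. The means of 169 bp ± 25.5 and 179 bp ± 21.3 (SD, n = 5) did not differ beyond that spread (exact two-sided permutation, p = 0.524, adjusted p = 0.750). Without HP High replicate 2 the difference was -6.40 bp and without HP Medium replicate 1 -12.4 bp, in place of -10 bp. The separate gates did not all share this direction. High had a median of 145, 133, 200 and 206.5 bp in replicates 1 to 4 against 179, 150, 198 and 201 bp in Low, so that High was shorter in replicates 1 and 2 and longer in replicates 3 and 4. The upper quartile of length in the joined sets was shorter in the high set of every replicate, 232 bp ± 20.3 against 240 bp ± 20.9, whereas the lower quartile was longer in 2 of 5 replicates, 112 bp ± 10.7 against 116 bp ± 13.3 (SD, n = 5). Promoter fragments had a median of 205 bp ± 19.0 in high and 206 bp ± 10.8 in Low sets (SD, n = 5), a difference of -1 bp that took both signs among the replicates.

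The shift in length was then compared with hemogenic endothelium 2 (HE2), the stage just before, whose 14 lists were joined in the same way. In HE2 the high sets differed from Low by -3, -3, 10, 18 and 2 bp, against -22, -10, -5, -2 and -11 bp in HPs. The HP differences had a mean of -10.0 bp ± 7.65 and those of HE2 4.80 bp ± 9.09 (SD, n = 5). HPs lay lower in 5 of 5 replicates, with a mean difference of -14.8 bp (exact two-sided permutation, p = 0.0238, adjusted p = 0.0476 over 2 measures). Each difference was taken within a replicate number, whereas the measures within HPs were tested without that pairing. The test then treated the HP and HE2 differences as unpaired, while the count of replicates goes by number. With the replicate number as a block the threshold was not passed. The adjusted p was 0.0159 with near copies counted once and 0.0476 without HP Medium replicate 1 in the same exact test. It was 0.222 without HP High replicate 2 and 0.373 with High and Medium/High lists alone, where the difference was -11.2 and -10.0 bp. With any 1 replicate left out it was 0.0571 to 0.171, and 4 sets against 4 allow no p under 0.0286 before adjustment. The distal share gave no such difference between stages (0.985 points, exact permutation test, adjusted p = 0.508).

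**Figure D3:**
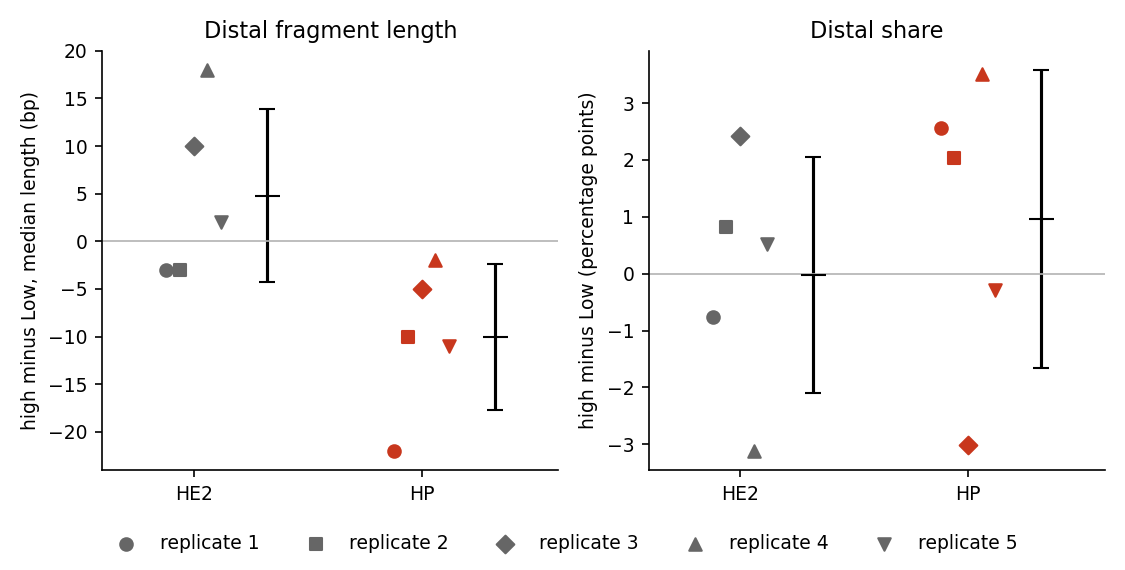
Difference between high and Low sets in median distal fragment length (left, bp) and distal share (right, percentage points) for HE2 and HP, 1 marker per replicate, with mean and SD as bars beside them. The length differences of HP lie at -22 to -2 bp and those of HE2 at -3 to 18 bp.

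The position of distal fragments was compared to ask whether high gates held elements farther from genes. The median distance to the nearest start of a protein-coding or long noncoding transcript was 7992 bp ± 430 in high and 7668 bp ± 996 in Low sets (SD, n = 5; exact two-sided permutation, p = 0.643, adjusted p = 0.750). Against protein-coding starts alone the difference changed sign, from 325 to -276 bp. Fragments of the distal lists within 1.5 kb of a GENCODE start made up 18.2% ± 2.33 of the high and 19.2% ± 1.46 of the Low sets. The classes are those of the deposited lists, and why these fragments are in the distal lists was not tested. Between 1.5 and 10 kb lay 38.5% ± 1.39 and 38.4% ± 3.57, and beyond 100 kb 2.99% ± 1.11 and 2.71% ± 0.570 (SD, n = 5).

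Intergenic fragments were more frequent in the high set of all 5 replicates. They made up 39.9%, 39.9%, 41.6%, 37.7% and 40.5% of distal fragments in high sets and 39.7%, 38.4%, 38.3%, 36% and 39.4% in Low sets. The step within a replicate was 0.264 to 3.27 percentage points, and the 2 ranges overlapped. The mean difference of 1.56 points did not pass the threshold (exact two-sided permutation, p = 0.127, adjusted p = 0.528). With near copies counted once it was 1.90 points (exact permutation test, p = 0.0238, adjusted p = 0.167). Introns held 46.4% ± 1.07 in high and 47.6% ± 1.23 in Low sets and exons 13.6% ± 1.40 and 14.1% ± 0.881 (SD, n = 5), neither passing the threshold (exact permutation test, adjusted p = 0.528 and 0.750). Coding exons held 4.98% ± 0.292 and 5.12% ± 0.435. Nearly all distal fragments had a protein-coding start within 100 kb, 93.2% on both sides.

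Promoter fragments were alike on both sides in where they lay. Of these, 84.4% ± 1.55 in high and 84.1% ± 1.05 in Low sets had their midpoint within 250 bp of a start, and 56.7% ± 2.84 and 55.8% ± 1.32 lay upstream of it (SD, n = 5). These values are descriptions without a test.

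**Figure D4:**
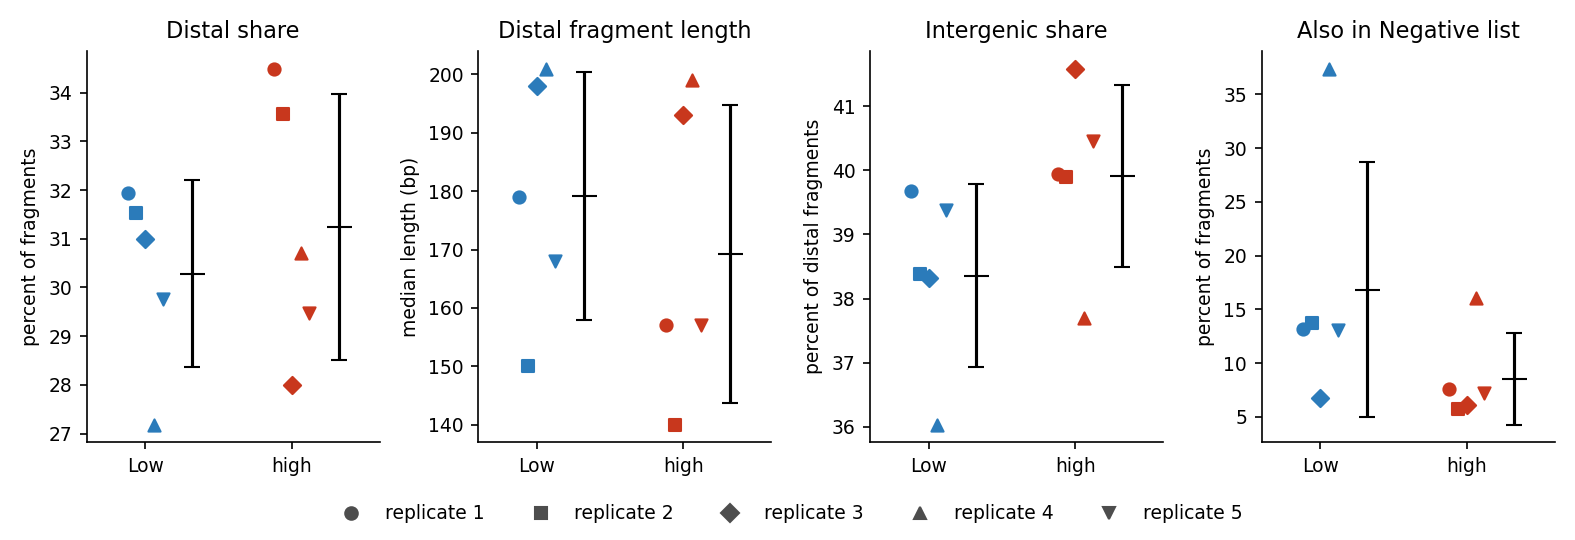
Measures of makeup in the Low and high sets of HPs, 1 marker per replicate, with mean and SD as bars beside them. From left to right they are the distal share (percent), the median distal fragment length (bp), the intergenic share of distal fragments (percent) and the share of fragments also in the Negative list of the same replicate (percent). The groups overlap in each.

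How often the same fragment also came from YFP-negative cells was asked next, since such a fragment was listed with and without YFP. In the high sets 7.60%, 5.69%, 6.15%, 16.1% and 7.23% of fragments were also in the Negative list of their replicate, and in the Low sets 13.2%, 13.7%, 6.77%, 37.4% and 13%. The Low set was the higher in all 5 replicates. The means of 8.55% ± 4.27 and 16.8% ± 11.8 (SD, n = 5) differed by -8.29 percentage points, which did not pass the threshold (exact two-sided permutation, p = 0.151, adjusted p = 0.603 over 4 measures). The high sets were longer throughout, and this share was not computed at equal fragment numbers. The Negative lists held 36011, 35143, 1969, 7918 and 818 fragments in replicates 1 to 5, and replicate 4, with the largest Negative list relative to its positive lists, gave the highest share on both sides. The part that list length plays was not tested.

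Fragments identical to one of the plasmid lists made up 70.6% ± 16.4 of high and 78.5% ± 6.62 of Low sets (SD, n = 5; exact two-sided permutation, p = 0.349, adjusted p = 0.698). In the short lists the share was lower, 64.0% to 66.1% in the high sets of replicates 3 and 4 and 48.9% in that of replicate 5, against 86.7% and 87.2% in replicates 1 and 2. With ends allowed to differ by 5 bp the difference between the sides was -1.70 percentage points. Fragments of the HM-1 control, which holds no reporter library, made up 1.74% ± 0.962 and 2.54% ± 2.33.

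High and Low sets of the same replicate number held more fragments in common than sets of different numbers. As a percent of the smaller set, same-numbered pairs shared 27.9%, 5.33%, 7.48%, 21.1% and 23.2% in replicates 1 to 5, a mean of 17% ± 10.0 (SD, n = 5). The 20 other pairs shared 5.83% on average (exact one-sided permutation test over 120 pairings, p = 0.0250). Replicates 1 and 2 were exceptions. The high set of replicate 1 shared 41.4% with the Low set of replicate 2 and 27.9% with its own, and that of replicate 2 shared 6.01% with the Low set of replicate 5 and 5.33% with its own. Without HP Medium replicate 1, the excess was 9.76 percentage points in place of 11.2 (exact permutation test, p = 0.0167). Without replicate 3, 4 or 5 the p of the exact test was 0.0833, 0.125 and 0.125.

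**Figure D5:**
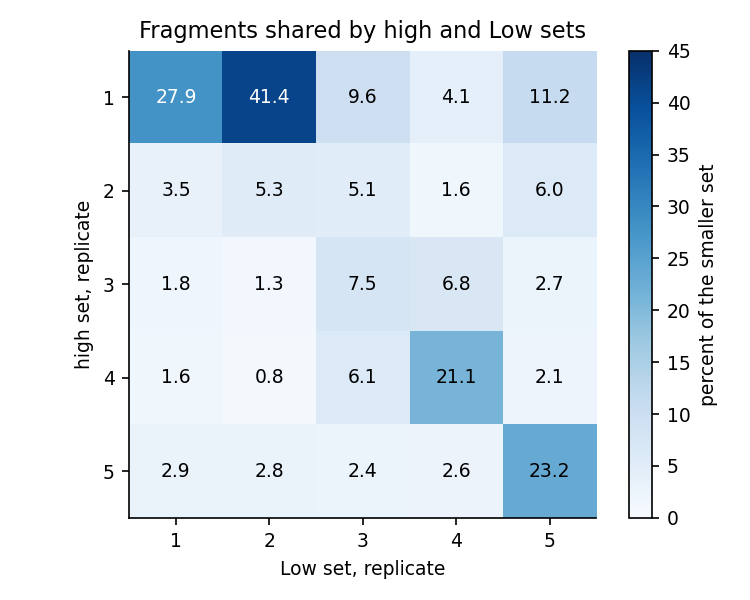
Percent of the smaller set shared by each high set (rows) and each Low set (columns) of HPs. The diagonal holds the pairs with the same replicate number, from 5.33% to 27.9%, and the largest value, 41.4%, is that of the high set of replicate 1 with the Low set of replicate 2.

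Over all replicates, 32.6% of the distal and 31.2% of the promoter fragments of Low sets were also in a high set, and 7.40% and 7.82% of those of high sets were also in a Low set. Overlapping fragments were merged into sites, and 8631 of 26204 distal sites (32.9%) and 10045 of 14665 promoter sites (68.5%) had fragments on both sides. Of the distal sites with a Low fragment 84.5% also had a high one, and of the promoter sites 97.0%. Of the distal sites with a high fragment 35.1% also had a Low one, and of the promoter sites 69.98%. Distal sites on the high side alone numbered 15984 and on the Low side alone 1589, with 72875 distal fragments on the high and 16519 on the Low side. The part of set size in this split was not tested. At equal fragment numbers the high sets covered 85.5 ± 8.98 and the Low sets 85.8 ± 10.7 distal sites per 100 fragments, and 69.0 ± 20.5 and 70.1 ± 22.3 promoter sites (SD, n = 5), without a difference past the threshold (exact two-sided permutation test, adjusted p = 0.944 each).

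Recurrence was counted next. On the high side 9293 of 24615 distal sites were in 2 or more replicates, 858 in 3 or more and 4 in all 5, and on the Low side 2381 of 10220 were in 2 or more, 247 in 3 or more and 1 in all 5. Of 26204 distal sites, 13110 were in 1 of the 10 sets and none in more than 8. Of 14665 promoter sites, 2805 were in 1 set and 4 in all 10. Distal sites in at least 3 high sets and no Low set numbered 189, and the reverse pattern was seen once, as it was for promoter sites (152 and 1). The high sets were larger in every replicate, with a mean of 45288 fragments against 10899, and these counts were not taken at equal fragment numbers, so they are no measure of a difference between gates.

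The distal fragments below had identical ends in several sets and were chosen only for that. They are given on the plus strand from GRCm38, the sequence of mm10, with every match to the 6 motifs searched in capitals. On either strand, the motif of GATA factors was AGATAA, that of RUNX factors TGTGGT, that of ETS factors CCGGAAG, that of AP-1 TGANTCA, the E-box of TAL1 was CAGATG and that of TEAD factors GGAATG. The choice was made among 76769 distal fragments of at most 300 bp, with 1 chromosome not searched. Of these, 14 were in 3 high sets and no Low set, the highest number found, and the first 2 by position are shown. The first lay between genes at chr2:37772055-37772192, 4126 bp from the start of Crb2, and held no motif. The second lay in an intron at chr5:35510772-35510864, 14753 bp from the nearest protein-coding start, that of Cpz, and held 1 RUNX motif. Both were in the high sets of replicates 1, 2 and 4.

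Fragment near Crb2, 138 bp: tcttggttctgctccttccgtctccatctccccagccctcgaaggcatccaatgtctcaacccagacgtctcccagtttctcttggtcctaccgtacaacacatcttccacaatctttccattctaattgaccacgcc
Fragment near Cpz, 93 bp: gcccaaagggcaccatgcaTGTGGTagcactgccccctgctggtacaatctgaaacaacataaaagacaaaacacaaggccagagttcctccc

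Among the same fragments, 1 was in 3 Low sets and no high set. Its sets were those of replicates 1, 2 and 5. It lay in an intron at chr7:6728676-6728804, 1679 bp from the start of Peg3, an imprinted gene of a zinc finger protein, and held a RUNX and an AP-1 motif that overlap by 1 base. In HE2 this fragment was listed in High replicate 1 and Low replicate 1, so in that stage it was on both sides. The next by position, in the Low sets of replicates 1 and 2 alone, lay between genes at chr1:4571930-4572151, 74686 bp from the start of Sox17, an endothelial transcription factor gene. It held none of the motifs and 14 CpG, and in HE2 it was listed in Low, Medium and High gates.

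Fragment near Peg3, 129 bp: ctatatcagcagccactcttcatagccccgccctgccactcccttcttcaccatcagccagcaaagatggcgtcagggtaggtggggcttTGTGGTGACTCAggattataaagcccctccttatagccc
Fragment near Sox17, 222 bp: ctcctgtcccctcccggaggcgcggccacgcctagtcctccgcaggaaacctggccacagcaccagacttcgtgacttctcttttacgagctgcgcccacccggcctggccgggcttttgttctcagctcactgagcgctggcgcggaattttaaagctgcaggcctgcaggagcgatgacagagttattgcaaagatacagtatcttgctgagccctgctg

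Of the fragments searched, the one listed most often was in 4 high and 3 Low sets and in 14 of the 19 HP lists, the Negative lists of replicates 1 to 4 included. It lay between genes at chr19:44655778-44655921, 92999 bp from the start of Hif1an, and held none of the motifs. It was thus listed in Negative, Low, Medium and High gates.

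Fragment near Hif1an, 144 bp: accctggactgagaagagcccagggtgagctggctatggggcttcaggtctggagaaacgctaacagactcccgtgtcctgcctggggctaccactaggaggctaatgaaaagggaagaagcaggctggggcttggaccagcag

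Base composition and motifs were counted in windows of 150 bp around the midpoint of each distal fragment, so that every fragment was given the same length. Up to 57.2% of the distal fragments of a YFP-positive list were shorter than the window. Windows of shorter fragments reach into flanking genome that was not in the reporter, and a motif in a window need not lie in the fragment. GC content was 55.8% ± 0.539 in high and 56.0% ± 0.562 in Low sets and CpG 3.14 ± 0.238 and 3.14 ± 0.189 per 100 bp (SD, n = 5). TEAD motifs were more frequent in the high set of all 5 replicates, 8.88%, 8.87%, 7.71%, 8.46% and 7.73% of windows against 8.03%, 8.36%, 6.51%, 5.74% and 7.71%. The step was 0.0218 points in replicate 5 and 2.72 in replicate 4. The mean difference of 1.06 percentage points did not pass the threshold (exact two-sided permutation, p = 0.0873, adjusted p = 0.698 over 8 measures). For comparison, 8.44% of the windows of 24320 distal fragments of HP Negative lists and 9.44% of those of all 197487 distal fragments of HP and HE2 held it. These are pools of distinct fragments, whereas the means of high and Low sets weigh 5 sets alike. The Negative pool came mostly from replicates 1 and 2, with 11491 and 11172 distal fragments, so it is not like for like with those means.

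The other motifs differed by less than the spread between replicates. GATA motifs were in 8.57% ± 1.61 of windows in high and 9.34% ± 0.970 in Low sets, lower in the high set in 4 of 5 replicates. In the pooled windows of Negative fragments the share was 9.49%. AP-1 motifs were in 7.14% ± 1.21 and 7.77% ± 0.990, also lower in 4 of 5, against 7.90% in that pool. RUNX motifs were in 13.9% ± 1.43 and 13.7% ± 1.34, ETS motifs in 2.13% ± 0.447 and 2.26% ± 0.374, and E-boxes in 13.7% ± 1.14 and 13.9% ± 1.52 (SD, n = 5). In windows of Negative fragments the shares were 14.3%, 2.27% and 13.4%. None of the 5 motifs passed the threshold (exact two-sided permutation test, adjusted p = 0.925 each). In promoter windows of HP and HE2 the shares were 1.59% for GATA, 5.15% for RUNX, 8.16% for ETS and 1.83% for AP-1, so GATA, RUNX and AP-1 motifs were rarer there than in distal windows and the ETS motif was more frequent.

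Single sites were tested by limma on log2 of fragments per 10000 listed with 1 added, over the 7742 sites seen in 4 or more of 10 sets. No site passed an adjusted p of 0.05 (0%). An unadjusted p under 0.05 was found for 16 sites (0.207%), far fewer than that limit gives in a calibrated test. Data were also simulated at these set sizes, with Poisson draws and no near copies. Of 200 sites changed 4-fold, 166 reached the test, 156 had the right sign and the same fit called 0. Of 200 changed 16-fold, 195 reached the test and 114 were called. This fit could thus not call changes of the smaller size, and depth was not varied. The sites in most sets were promoters. That of Nr2c2, a nuclear receptor gene, at chr6:92091641-92092625 held 25, 10, 4, 4 and 1 fragments in high sets and 7, 1, 3, 5 and 2 in Low sets. With near copies counted once, the 4 and 4 of replicates 3 and 4 became 1 and 1 in high sets and the 3 and 5 became 1 and 1 in Low sets. The promoter sites of Lonp2, a peroxisomal protease gene, at chr8:86623674-86624424 and of Vdac3, a mitochondrial channel gene, at chr8:22593563-22594310 were also in all 10 sets.

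The distal sites in most sets were each in 8 of 10. One was in an intron of Chd2, a chromatin remodeller gene, at chr7:73537685-73538308, only 375 bp from a GENCODE start, with 34, 16, 1, 0 and 2 fragments in high and 6, 2, 0, 1 and 1 in Low sets. One was in an exon of the annotated gene Gm7461 at chr8:4677437-4678176, 51966 bp from the start of Zfp958. Both had fragments in 4 high and 4 Low sets. The last lay between genes at chr12:17881504-17882363, 153707 bp from the start of Hpcal1, in 5 high and 3 Low sets.

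The sites with the smallest p were given by rule, though none passed. The promoter site of Stat5a, which encodes a signal transducer of cytokine receptors, at chr11:100859820-100860898 held 15, 4, 3, 1 and 1 fragments in high sets and 0, 1, 0, 0 and 0 in Low sets. All 5 high sets and a single Low set held it, a log2 difference of 2.06 ± 0.87 (SE; limma, adjusted p = 0.999). Its 3 fragments in the high set of replicate 3 became 1 with near copies counted once. The promoter site of Pde3b, a phosphodiesterase gene, at chr7:114415181-114415772 held 4, 2, 7, 0 and 1 fragments in high sets and 0 in every Low set. It entered the test through the high sets alone, since a site needed fragments in 4 sets, and no p is given for it. Its 7 fragments in replicate 3 became 2 with near copies counted once. In the other direction, a distal site in an intron of 4933432I03Rik at chr14:103012687-103013023, 30218 bp from the start of Kctd12, held 1, 4, 0, 0 and 0 fragments in high and 0, 1, 1, 1 and 1 in Low sets (log2 difference -1.82 ± 0.85, limma, adjusted p = 0.999). The promoter site of Dctn5, a dynactin subunit gene, at chr7:122132688-122133394 held 8, 2, 0, 0 and 0 against 3, 0, 1, 1 and 1 (log2 difference -1.84 ± 0.86, limma, adjusted p = 0.999). The 5 high sets of the Stat5a site were enough to meet the filter of 4 sets, as were the 4 Low sets of the sites near Kctd12 and of Dctn5. Their places here are therefore no support for a difference either. In each of these sites the sets of replicates 3 to 5 held 0 to 7 fragments. Per 10000 listed, the site near Kctd12 was above Low in replicates 1 and 2, in the latter with 0.772 against 0.640. Its negative log2 difference came from 1 fragment in each Low set of replicates 3 to 5.

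Fragments were then given to the protein-coding gene with the nearest start within 100 kb, to ask whether known blood genes gained or lost elements with the gate. The study took the closest gene only where promoter capture HiC data gave no link, and such data were not used here. A fragment given to a gene need not act on it. Among genes named below, the median distance was 81 bp for Itga2b. It was 69368.5 bp for Irf8, 37480.5 bp for Cd34, 32625 bp for Hand2 and 18367.5 bp for Fos. Of 7957 genes seen in 4 or more sets and tested, none passed (0%), and 31 (0.39%) had an unadjusted p under 0.05. The simulation called 0 of 200 genes changed 4-fold and 168 of 200 changed 16-fold. The median log2 difference over all genes tested was -0.03, with 3683 higher and 4274 lower in high sets. Values per gene below are numbers of distinct fragments in the sets of replicates 1 to 5. High sets were the larger in every replicate, so these numbers are not comparable between sides without the set sizes. The values per 10000 listed and the log2 differences divide by set size, but every set counts alike whatever its length. A single fragment in a short list can therefore move them more than many in a long one. Aff4 had 1 fragment in the Low set of replicate 4, 7.10 per 10000, and 30 in the high set of replicate 1, 1.78. Aff4 was above Low in replicate 1 alone, and its log2 difference was -2.15. No single member of the lists passed the threshold.

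Blood transcription factor genes had 25 of 29 members tested, 15 of them higher and 10 lower in high sets, with a median log2 difference of 0.05 and 0 called. Their summed share was 29.1 ± 3.76 per 10000 fragments in the high sets against 22.1 ± 14.2 in Low sets (SD, n = 5). It was higher in 3 of 5 replicates, and the Low set of replicate 3 held none. In the long lists of replicates 1 and 2 it was lower in high sets, 32.1 against 37.2 and 27.6 against 31.4. Cbfa2t3, a corepressor of the TAL1 complex, held 58, 16, 0, 0 and 1 fragments in high sets and 16, 7, 0, 0 and 1 in Low sets. Zfpm1, the GATA1 cofactor FOG1, held 60, 8, 0, 0 and 1 against 12, 11, 0, 0 and 1. Neither had a fragment in replicates 3 and 4. Per 10000 listed, Cbfa2t3 was above Low in 0 replicates and Zfpm1 in 1, with log2 differences of -0.25 and -0.42. Irf8, a factor of monocytes and dendritic cells, held 42 and 6 fragments in the high sets of replicates 1 and 2. It held 2 and 2 in the Low sets and 0 elsewhere. The log2 difference of Irf8 was 0.21.

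Progenitor surface proteins and cytokine receptors had 10 of 20 members tested, 4 higher and 6 lower (median log2 difference -0.07, 0 called). Summed, they had 9.58 ± 7.31 per 10000 fragments in high and 13.6 ± 4.25 in Low sets (SD, n = 5), higher in 1 of 5 replicates. Itga2b, which encodes the CD41 used in the sort, held 46, 13, 0, 0 and 1 fragments in high and 12, 4, 0, 0 and 0 in Low sets. Cd34 held 32, 8, 0, 0 and 2 against 4, 2, 0, 0 and 1, and per 10000 listed was above Low in all 3 replicates that had fragments. Itgb3, the integrin partner of CD41, held 15, 5, 0, 0 and 1 against 10, 2, 0, 2 and 0. Per 10000 listed, Itga2b and Itgb3 were each above Low in 1 replicate.

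Myeloid, erythroid and platelet products were thinly covered, with 3 of 20 members tested, 2 higher and 1 lower (0 called), and 11 with any fragment. Summed, they had 5.75 ± 0.949 per 10000 fragments in high and 5.59 ± 4.22 in Low sets (SD, n = 5), higher in 2 of 5 replicates. Vav1, a signalling adaptor of blood cells, held 34, 6, 1, 1 and 0 fragments in high and 6, 6, 0, 0 and 0 in Low sets, all of them distal. Laptm5, a lysosomal protein of blood cells, held 18, 5, 0, 0 and 2 against 2, 1, 0, 0 and 1. Gp1ba, a platelet receptor, had too few sets for the test.

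Endothelial genes had 15 of 20 members tested, 4 higher and 11 lower in high sets (median log2 difference -0.11, 0 called). Their summed level was 21.1 ± 4.86 in high and 25.0 ± 7.47 fragments per 10000 in Low sets (SD, n = 5), higher in 1 of 5 replicates. Egfl7, a secreted endothelial factor, held 51 and 20 fragments in the high sets of replicates 1 and 2, 10 and 5 in the Low sets, and 0 elsewhere. Ets1, an ETS factor, held 47, 16, 4, 0 and 1 against 11, 4, 1, 0 and 1. Notch1, the receptor of arterial and blood specification, held 32, 6, 0, 0 and 0 against 8, 1, 0, 0 and 1.

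AP-1 genes, whose products form the dimeric AP-1 factors, had 10 of 12 members tested, 8 higher and 2 lower (median log2 difference 0.22 against -0.03 over all genes, 0 called). Their sum was 22.9 ± 7.57 per 10000 fragments in the high sets against 13.3 ± 5.28 in Low sets (SD, n = 5), higher in 3 of 5 replicates. In replicates 1 and 2, which hold most of the fragments, the sum was lower in high sets, 15.6 against 17.6 and 15.6 against 19.8. It was higher in the short lists of replicates 3 to 5, 26.2, 23.6 and 33.5 against 11.9, 7.10 and 10.2. Fos held 77, 17, 1, 2 and 1 fragments in high sets and 13, 9, 0, 0 and 1 in Low sets, 96 of its 102 distinct fragments being distal. It was present in all 5 high sets and in 3 Low sets, with a log2 difference of 1.14 ± 0.92 (SE; limma, adjusted p = 0.9998). Fosb held 35, 15, 0, 0 and 5 against 8, 4, 0, 0 and 1, and Junb 31, 7, 2, 0 and 3 against 10, 3, 0, 1 and 0.

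The lists of other tissues and of housekeeping genes also had no member past the threshold. Pluripotency genes had 7 of 18 members tested, 2 higher and 5 lower (median -0.10), among them Klf2 with 25, 9, 0, 0 and 1 fragments against 11, 1, 0, 0 and 1. Mesoderm and heart genes had 8 of 18 tested, 2 higher and 6 lower (median -0.14). Hand2, a heart transcription factor gene, per 10000 listed was above Low in all 4 replicates with fragments, with 18, 11, 0, 2 and 1 against 2, 1, 0, 1 and 0. Cytosolic ribosomal protein genes had 48 of 80 tested, 21 higher and 27 lower (median -0.03), with Rpl27 at 36, 19, 2, 2 and 0 against 7, 2, 0, 2 and 1.

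The genes with the smallest p in either direction were named by rule and did not pass. Plec, which encodes the cytoskeletal linker plectin, held 34, 17, 2, 4 and 1 fragments in high and 7, 2, 0, 0 and 0 in Low sets (log2 difference 2.29 ± 0.93, SE, limma, adjusted p = 0.9998). Stat5a followed with 16, 6, 3, 1 and 1 against 0, 2, 0, 0 and 0, and Fry, a scaffold protein gene, with 18, 4, 1, 2 and 0 against none. Fry was in 4 high sets and no Low set, so it passed the filter of 4 sets through the high side alone and its place here is no support for a difference. In the other direction, Zfp619 held 47, 13, 0, 0 and 0 against 17, 6, 1, 2 and 1 (log2 difference -2.26 ± 0.93, limma, adjusted p = 0.9998). Aff4, a scaffold of the elongation complex, held 30, 3, 0, 0 and 0 against 4, 3, 2, 1 and 1, and Ggta1, a galactosyltransferase gene, 22, 11, 0, 0 and 0 against 6, 5, 1, 2 and 1. All 3 were in the 5 Low sets and only in the high sets of replicates 1 and 2. Their Low sets were enough to meet the filter, as were the 5 high sets of Plec and of Stat5a. The places of these genes here are thus no support for a difference either.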

How the data were processed

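Per the labels and the methods of the study, the authors trimmed reads with Trim Galore, mapped them to mm10 with Bowtie2, kept pairs above a mapping quality limit with SAMtools, wrote 1 interval per pair with bedtools, removed duplicates, and filtered against HM-1 control reactions, plasmid lists and open chromatin peaks. The study describes keeping a fragment only if the plasmid libraries held an identical one. The sorted lists used here hold fragments that are not identical to a plasmid fragment and some that are identical to a control fragment. How the deposited lists were filtered is thus not known here, and the main comparison includes such fragments. With plasmid-matched fragments alone, the intergenic difference was 2.70 percentage points (exact permutation test, adjusted p = 0.278) and the distance difference 25.7 bp. No molecular identifiers are described for the PCR before sequencing. Sorted lists were deposited as positions of distinct fragments, so a lost or repeated molecule is not visible. Plasmid and control lists were deposited with whole read counts per fragment, not normalized by the authors, and here served only for matching.

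Sorted starts were taken as counted from 1 and plasmid starts as counted from 0 (82.4% of a sample of fragments then matched a plasmid fragment, otherwise 3.49%). HP fragments off the main chromosomes (39) were left out. Annotation was GENCODE M21. Means of 5 sets were compared by exact permutation over 252 splits (smallest p = 0.00794), with Benjamini-Hochberg adjustment within families of 7, 4, 8 and 2 measures. Sites and genes were tested with limma 3.58.1 (trend, R 4.3.3), and other steps used Python 3.11.15. Both tests were checked on simulated data, where 5 values against 5 passed 0.05 in 6% of 200 draws without a shift and in 75.5% with a shift of 2 SD. Labels do not say whether libraries came from separate cultures, so p-values measure the spread between these sets.

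The members, gene lists and tests were chosen with earlier results of these data known. Named genes were the 3 members of each list with the most fragments and the 3 per direction with the smallest p. Named sites were the 3 distal and 3 promoter sites in most sets and the 2 per direction with the smallest p. Alternatives were High and Medium/High lists only, list means, plasmid-matched fragments, unshared fragments, equal fragment numbers (100 draws), other annotation, windows, bins and tolerances, 0.25 added, 2 of 10 sets, each replicate left out, and the replicate number as a block. Leaving out 2 single lists and counting near copies once were added after the data were seen. Printed sequences were chosen outside chromosome 18. The Tmem144 site was also looked at after its values were seen.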

Additional observations from a re-analysis of the deposited data

Results flagged for a closer look

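Of 73 groups of 5 sets examined for a value far from the rest, 11 had one. For normally spread values chance alone flags about 1 group in 20. Counts of single genes and sites are sparse, and a group with fragments in only 1 set is flagged by construction. The 11 are therefore not set against that rate. The share of fragments also in the Negative list stood apart in replicate 4 on both sides, at 16.1% in the high and 37.4% in the Low set. The E-box share of distal windows was highest in the high set of replicate 3, at 15.7%.

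The other values that stood apart were those of single genes and sites, in fragments per 10000 listed. Stat5a stood at 19.6 in the high set of replicate 3, as did its promoter site at 19.6, and in Low sets replicate 2 alone had fragments, 1.28 for the gene and 0.640 for the site. The 3 fragments of the site in the high set of replicate 3 became 1 with near copies counted once. The Pde3b site stood at 45.8 in the high set of replicate 3, Aff4 at 23.8 in the Low set of replicate 3 and the distal site near Hpcal1 at 28.4 in the Low set of replicate 4. The last of these rested on 4 fragments, which became 1 with near copies counted once. The site near Kctd12 stood at 0.772 in the high set of replicate 2.

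The high minus Low difference in distal fragment length, taken within replicate numbers, differed between HP and HE2 by -14.8 bp (exact permutation test, adjusted p = 0.0476). In the same test the adjusted p was 0.222 without HP High replicate 2, 0.373 with High and Medium/High lists alone and 0.0571 to 0.171 with 1 replicate left out.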

How the results depend on the processing

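Of 413 values under alternative settings, 376 kept direction and side of the threshold. Among the 376 are 89 values from planned and 29 from added alternatives for the genes and sites named for their smallest p. Those lay far from the threshold in every setting. For a result so far from the threshold, keeping its side was close to fixed in advance, so the tally is no measure of stability. Replicates 3 to 5 hold 778 to 2986 fragments per list, and 0 sites or genes were called in all but 1 setting. With a fragment required in 2 of 10 sets, 1 site was called, that of Tmem144, lower in high sets (limma, adjusted p = 0.000333). The looser filter let 24954 sites into the fit in place of 7742 and left the fragments of this site unchanged. Its log2 difference was the same, and the call came with an SE of 0.16 in place of 0.75. By replicate the site held 1, 0, 9, 5 and 1 fragments in high sets. It held 0, 0, 9, 7 and 7 in Low sets, so the sides overlapped. The call is therefore no support for a difference. Why the SE differed was not tested.

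The HP against HE2 length difference was no longer past the threshold with High lists alone (-10.0 bp), without HP High replicate 2 (-11.2 bp), with any replicate left out (-16.8 to -13.5 bp, where the smallest exact p is 0.0286 before adjustment) or with the replicate block (-14.8 bp, exact sign-flip p = 0.0625, the smallest it allows). It was -17.2 bp and past the threshold without HP Medium replicate 1. The same-number excess ranged from 8.40 to 15.4 percentage points with a replicate left out. Same-numbered sets deviated together over sites with correlations of 0.23, 0.23, 0.06, 0.21 and 0.19, and 1 lay under 0.1. The numbers were therefore not taken to pair the sets, except in the HP against HE2 differences, which were taken within a number. The high set of replicate 1 correlated best with the Low set of replicate 2. The replicate block gave 0 sites and 0 genes and changed no other call. For the measures, however, its exact sign-flip test allows no p under 0.0625, so it could not have added a call. Distal fragment length, intergenic share, TEAD motif share and the share also in the Negative list stood at that smallest p.

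Changes of sign were limited to differences far from the threshold. The distance difference became -276 bp with protein-coding starts. With High lists alone the difference in GC became 0.0154, in E-boxes 0.132 and in ETS motifs 0.100 points, and with 100 bp windows ETS became 0.168 and RUNX -0.612. With near copies counted once, RUNX became -0.121 points and distal sites 0.436 per 100. CpG became -0.000558 with equal numbers, -0.0106 without HP High replicate 2 and -0.00435 without HP Medium replicate 1, and promoter length 0.4 bp without HP High replicate 2. With a replicate left out, signs changed within -0.0648 to 0.0361 for CpG, -0.427 to 2.59 for the HP against HE2 distal share, -0.972 to 0.771 for distal sites, -0.719 to 0.0705 for exons, -4.25 to 1.25 bp for promoter length, -0.731 to 0.420 for E-boxes, -0.310 to 0.0535 for ETS and -0.656 to 0.566 for RUNX. The cause was not tested.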
